A study of Rattus norvegicus with 38 samples.

Results

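Blood vessels cut by laser microdissection from the cortex of the frontal brain of Wistar rats were compared between a late and an early age. The 9 libraries were all those labelled as cortical vessels of Wistar animals, out of 38 in the series: 5 from animals aged 24 to 25 weeks (early; animals 340, 343, 346, 349 and 368) and 4 from animals aged 32 to 34 weeks (late; animals 350, 351, 353 and 354). The other libraries came from SHRSP rats, a stroke-prone hypertensive strain (5 early and 5 late vessel libraries, at the same ages), and from neuron clusters cut from the cortex of the same animals. The labels name no treatment for any group, and the stage of a Wistar group is its age. Wistar rats serve in such studies as a strain with normal blood pressure, so the comparison gives the stage difference without the hypertension that the series title is about.

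Cortical vessels are lined by endothelial cells, whose tight junctions and transporters form the blood-brain barrier. Pericytes cover the capillaries, smooth muscle cells surround the arterioles, and the end feet of astrocytes lie on the outer wall. A piece of tissue cut around a vessel can therefore carry RNA of all these cells and of the neighbouring nerve tissue. In such bulk samples fewer cells of a type and less RNA per cell cannot be told apart. RNA was read from the 3' ends of transcripts, and genes are given by their Ensembl gene IDs (ID below), because no table used here pairs these IDs with names. Marker genes of the vessel wall could not be looked up for the same reason, and no sequence is shown.

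As a check of the material that uses no names, IDs higher in vessels or in neurons were chosen in the 10 SHRSP animals alone (adjusted p under 0.05 and a log2 fold of at least 1). The 199 vessel-enriched IDs took between 2.89% and 8.49% of the counts in early and between 3.63% and 5.32% in late Wistar vessel libraries. In the neuron libraries of the same Wistar animals they took 1.42% to 2.29% early and 0.778% to 1.32% late. Every Wistar vessel library lay above every Wistar neuron library by this set, but not by the 506 IDs chosen in late SHRSP animals alone, an alternative added after seeing the data. By those, the vessel library of animal 349 (7.51%) lay below the neuron libraries of animals 343 (8.08%) and 346 (8.10%), though above its own neuron library (4.92%). That vessel library gave 40.6% of its counts to the most abundant ID, described below. With that ID left out of the totals, the shares were 12.6% in this library and 8.67% and 9.08% in those 2 neuron libraries. Every vessel library (lowest 11.3%, animal 353) then lay above every neuron library (highest 9.08%). The 1206 neuron-enriched IDs still took 3.76% to 6.68% of the counts in early and 4.19% to 6.35% in late vessel libraries, against 8.38% to 10.1% and 7.41% to 8.01% in the neuron libraries. With the most abundant ID left out of the totals, they took 4.83% to 7.76% and 5.98% to 8.17% in vessel libraries. In the neuron libraries they then took 9.89% to 11.2% early and 10.4% to 12.3% late. Vessel pieces of both ages therefore held transcripts that are more abundant in the neuron pieces.

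The number of IDs with at least 1 count set the early libraries apart from each other. It was 8752 in animal 340, 6453 in 343, 5833 in 346, 11754 in 349 and 6543 in 368. The late libraries held 10478 IDs in animal 350, 10895 in 351, 11190 in 353 and 11974 in 354. Of the 5 early libraries, 4 lay below every late library, and that of animal 349 lay among the late ones. The means were 7867 ± 2438 early (SD, n = 5) and 11134 ± 631 late (n = 4), a difference of 3267 IDs that did not pass (exact permutation test, two-sided, p = 0.0556, adjusted p = 0.167 over 6 such tests, where 0.00794 is the smallest unadjusted p these groups allow). Without animal 349 the difference was 4239 IDs, which is given with no test, since leaving out the only early library among the late ones makes the groups separate. With each of the other 8 libraries left out in turn, p was 0.0714 to 0.125 (exact permutation tests).

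Depth was not ordered the same way. Totals ran from 2633327 to 3998154 counts in early and from 2291689 to 4910359 in late libraries, and the late library with the fewest counts, that of animal 353, held more IDs than 4 of the 5 early ones. At the depth of that library, 2291689 counts, the expected number of IDs was 7712 ± 2479 early and 10998 ± 652 late (SD; exact permutation test, p = 0.0556).

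ENSRNOG00000043866, the most abundant ID in each of these libraries, took 16.3%, 14.0%, 12.6%, 40.6% and 9.73% of the counts in early animals 340, 343, 346, 349 and 368. It took 22.7%, 34.0%, 22.3% and 30.0% in late animals 350, 351, 353 and 354. Here too 4 early libraries lay below every late one and animal 349 above them all. The mean shares were 18.6% ± 12.5 early and 27.2% ± 5.73 late (SD; exact permutation test, p = 0.254). Without animal 349 the difference was 14.1 percentage points, again with no test, as the other early libraries all lie below the late ones. With each of the other 8 libraries left out in turn, p was 0.25 to 0.464 (exact permutation tests). In the neuron libraries of these animals the ID took 4.34% to 10.7% in early animals other than 349, 24.6% in 349, and 24.3% to 35.5% late. In SHRSP vessels it took 6.45% to 17.7% early and 9.69% to 31.0% late.

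**Figure D1:**
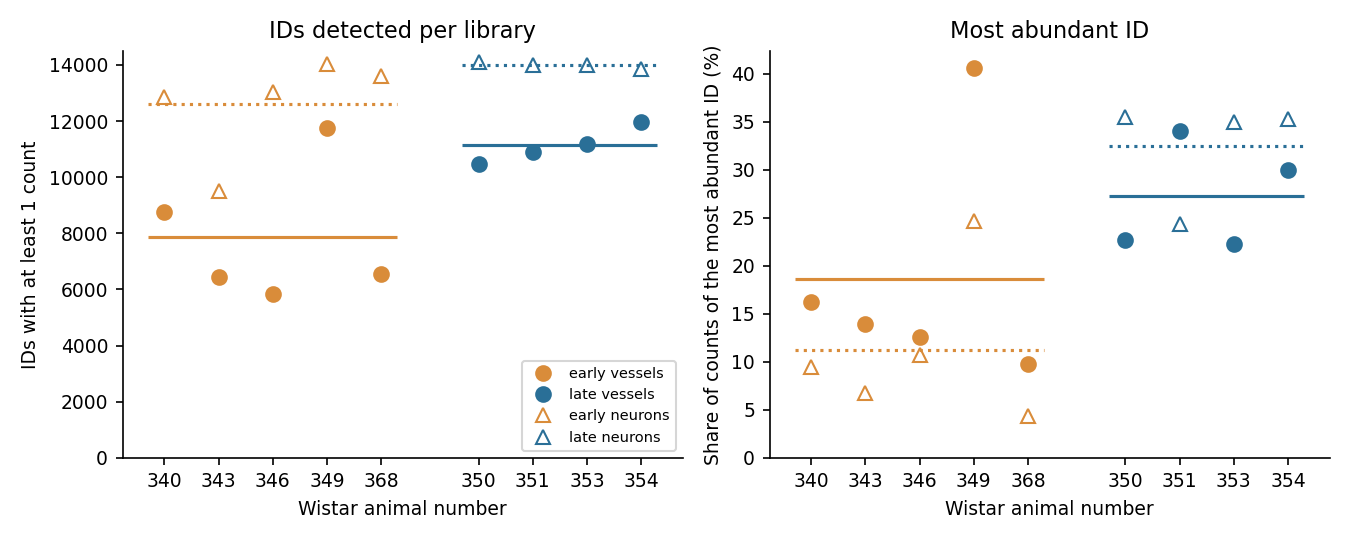
IDs with at least 1 count (left) and the share of counts taken by the most abundant ID in percent (right) for each Wistar animal, with vessel libraries as filled circles, neuron libraries of the same animals as open triangles, and horizontal lines at the group means. The early vessel libraries of animals 340, 343, 346 and 368 hold 5833 to 8752 IDs, while that of animal 349 holds 11754 and lies among the late libraries.

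The neuron libraries of these animals held 12604 ± 1798 IDs early (SD, n = 5) and 13984 ± 102 late (n = 4), with the lowest value, 9501, again in the early group, in animal 343 (exact permutation test, p = 0.0873). The number in the vessel library minus that in the neuron library of the same animal was -4737 on average early and -2850 late, and these gaps did not differ beyond their spread (exact permutation test, p = 0.206). Early and late SHRSP vessel libraries held 6539 ± 2248 and 10607 ± 773 IDs (SD over 5 libraries in each group). That difference had p = 0.0238 in the exact permutation test and did not pass after adjustment (0.143).

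Which IDs were missing depended on their level. Levels are in CPM, the counts of an ID relative to the library total, scaled between libraries with edgeR's TMM method. Of the 6263 tested IDs with a mean of 10 to 100 CPM over the 9 libraries, 87.4% had a count in early animal 340, 67.3% in 343, 61.5% in 346, 98.9% in 349 and 68.1% in 368, against 96.2% to 99.3% in the late libraries. Under 10 CPM, the 4 early libraries other than 349 held 11.7% to 41.3% of 3277 IDs, and the late libraries 68.1% to 85.5%. From 100 to 1000 CPM every library held at least 98.7% of 1416 IDs, and all 55 IDs above that were found in all 9 libraries. By this mean, the difference in detection between the ages lay in IDs of low and middle level. Zeros lower the mean of the same libraries, so the range of an ID is not separate from its detection.

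**Figure D2:**
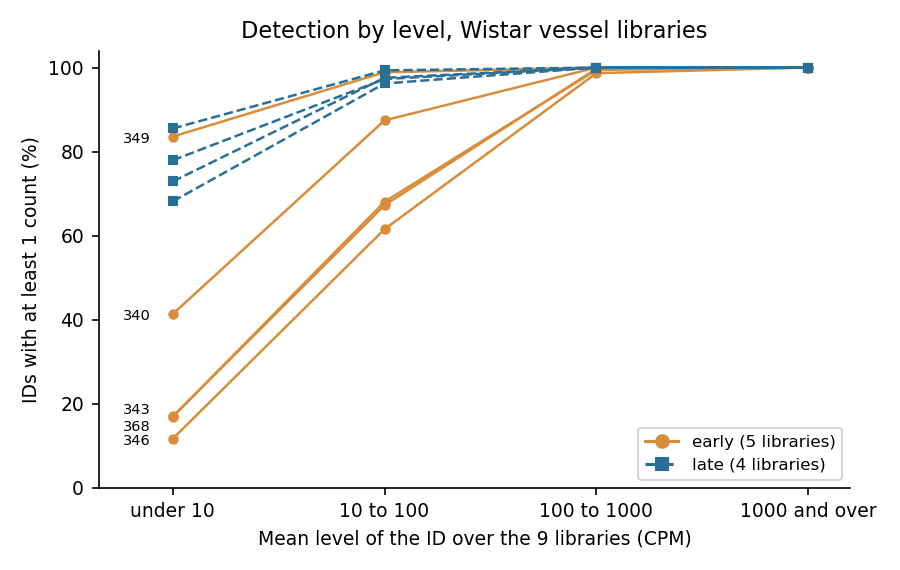
Percent of tested IDs with at least 1 count in each Wistar vessel library (orange circles early, blue squares late), by the mean level of the ID over the 9 libraries in CPM. Below 100 CPM the early libraries of animals 340, 343, 346 and 368 run under the late ones, while animal 349, at 83.6% and 98.9%, runs with them.

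The missing IDs were not the same ones in each early library. All 4 late libraries held 8605 IDs in common, and animal 349 held 98.3% of these. Animals 340, 343, 346 and 368 held 84.5%, 65.9%, 60.8% and 66.8% of them. Of the 8455 IDs found in all late libraries and in animal 349, the other 4 early libraries all held 3475 (41.1%), 3 of them held 1931, 2 held 1504, 1 held 1078 and none held 467 (5.52%). Pairs of those 4 libraries shared 54.0% to 58.2% of the IDs found in either, and pairs of late libraries 76.5% to 78.0%.

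Counts of 0 also reached IDs for which many counts would follow from the late level. Among the 1288 IDs with at least 100 CPM on average in the late libraries, the library of animal 346 had no count for 30 (2.33%), for which the late mean at its depth would give a median of 314.3 counts. Animals 368, 343, 340 and 349 had no count for 11, 6, 1 and 0 of them. Each late library set against the other 3 had 0 or 1 such ID. At a late mean of at least 300 CPM, an added alternative, 0 of 297 IDs were without a count in any early library. The level of the IDs that a library did hold differed by range. At 10 to 100 CPM the median was 43.4 CPM in animal 346 and 41.9 in 368, for IDs whose late means had medians of 34.4 and 33.9 CPM. Under 10 CPM it was 1.61 CPM in animal 346 and 3.2 in 368, against late medians of 6.03 and 6.29 CPM, while it was 6.58 against 6.76 in animal 340 and 6.66 against 5.99 in 343. These medians cover detected IDs alone and are raised by leaving out the zeros.

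The spread between animals followed the same line. Estimated within each group, the coefficient of variation shared by all IDs was 1.97 in early and 0.867 in late vessels. The SD of log2(CPM + 1) was larger early than late for 81.8% of the 11011 IDs tested, and for 95.4% of those at 10 to 100 CPM. Spearman correlations between pairs of libraries over all tested IDs, given as a description, were 0.513 to 0.593 among the 4 early libraries without animal 349 and 0.738 to 0.818 among the late ones. Between animal 349 and the late libraries they were 0.761 to 0.848.

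Among the 2957 IDs with a mean of at least 50 CPM, the level in early animal 349 was within 2-fold of the late mean for 90.9%. In animals 340, 343, 346 and 368 this held for 70.6%, 56.6%, 46.0% and 50.5%. Each late library compared with the mean of the other 3 gave 76.1% to 92.2%, lowest in animal 353. Departures went both ways: in animal 346, 22.7% of the IDs were over 2-fold higher and 31.2% over 2-fold lower than the late mean, and the median log2 ratio was -0.05.

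**Figure D3:**
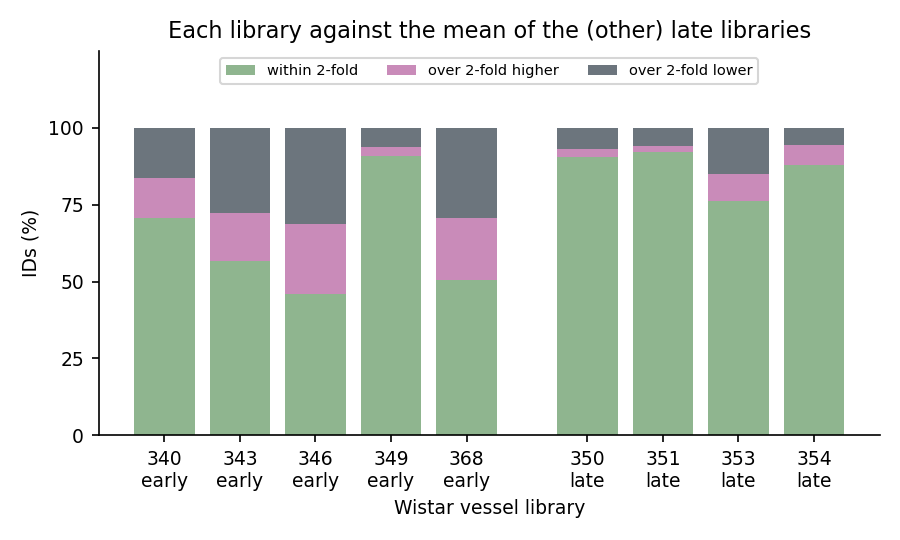
For each Wistar vessel library, the percent of 2957 IDs (mean of at least 50 CPM) whose level lies within 2-fold of the mean of the late libraries, or over 2-fold higher or lower; a late library is set against the other 3 late ones. The early library of animal 349 reaches 90.9% within 2-fold, and the other early libraries 46.0% to 70.6%.

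Against this spread, 1 of 11011 IDs differed between late and early Wistar vessels (0.00908%; edgeR's quasi-likelihood test over all 19 vessel libraries, Benjamini-Hochberg adjusted p under 0.05). It was lower late, and 0 IDs were higher. An unadjusted p under 0.05 was reached by 401 IDs (3.64%), 322 higher and 79 lower. Of the 322, 229 had no count in any early library and 9 had a count in all 5. Over all 11011 IDs tested, 243 had no early count and 3530 had a count in all 5. At that p in edgeR, lower IDs were the more frequent with only the Wistar vessel groups in the fit (79 higher, 143 lower). The same held with a mean of at least 50 CPM (11 and 34) and with the IDs detected as a covariate (118 and 236). Higher IDs stayed the more frequent with both other scalings (318 and 70, 313 and 95) and without a filter (1313 and 196). DESeq2 called 34 IDs, 31 higher and 3 lower, and 30 of the 31 had no count in any early library. limma voom called 0, with 1760 at an unadjusted p under 0.05. Without animal 349, edgeR called 6 IDs, 2 higher and 4 lower. That early library lay among the late ones in detection, so leaving it out sets the groups apart and gives no separate support.

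ENSRNOG00000031033 was the ID that passed. It stood at 10500, 7621, 21424, 8618 and 10622 CPM in early animals 340, 343, 346, 349 and 368, and at 5866, 6542, 6238 and 6156 CPM in late animals 350, 351, 353 and 354. Every late library lay below every early one, and animal 346 lay far above the other early animals. The means were 11757 ± 5552 CPM early and 6200 ± 278 late (SD), 1.90-fold lower late (log2 fold -0.92, SE 0.18, adjusted p = 0.00531 in edgeR's quasi-likelihood test). Leaving out animal 346 ended the call and made the fold smaller (log2 fold -0.59, adjusted p = 1). The call was also lost without animals 368 (0.0741), 350 (0.152) and 353 (0.0577), where the log2 fold was -0.85 each time, close to that with all libraries. The adjusted p ran from 0.000399 to 1 over 18 alternatives, 12 of which lost the call. With only the Wistar vessel groups in the fit, and so without the SHRSP libraries in the spread, the log2 fold was -0.92 and the adjusted p 0.493 in edgeR.

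ENSRNOG00000030644 had the second smallest p among lower IDs. It stood at 14073, 10962, 28103, 9030 and 18614 CPM in the early animals in the same order, and at 7706, 7625, 5387 and 9365 CPM in the late ones. The groups overlapped only where early animal 349 lay under late animal 354. The log2 fold was -1.10 (SE 0.22, adjusted p = 0.0588 in edgeR), which did not pass. It passed in 10 of 18 alternatives, among them edgeR with DESeq2-type scaling (adjusted p = 0.000665). Those 10 include leaving out animal 349, for which no p is given, since it removes the only overlap. It did not pass without animal 353 (log2 fold -0.89, adjusted p = 0.323) or in DESeq2 (log2 fold -1.08, adjusted p = 1).

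ENSRNOG00000045811 had the smallest p among higher IDs. Early animals held 292.5, 368.5, 130.6, 883.8 and 392.7 CPM, and late animals 1046, 591.0, 1882 and 736.8 CPM. All late libraries lay above all early ones but that of animal 349. The means were 413.6 ± 282.1 and 1064 ± 577 CPM (SD, with a log2 fold of 1.36, SE 0.41, adjusted p = 0.718 in edgeR). Without animal 349 the log2 fold was 1.90, given with no test, since leaving out that library makes the groups separate.

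ENSRNOG00000045924 had the second smallest p among higher IDs. It had no count in the 5 early libraries nor in late animal 350, and 14.2, 13.1 and 27.1 CPM in late animals 351, 353 and 354. Set against 3 counts over the whole early group, 0.192 CPM, the late mean of 13.6 ± 11.1 CPM was at least 70.9-fold higher, a bound that covers counting error only. Over the libraries it did not pass in edgeR (adjusted p = 0.718) and did in DESeq2 (adjusted p = 0.0315). Unlike the other 3 named IDs, which were counted in all 9 libraries, this one was seen in 3 late Wistar vessel libraries alone. It was not confined to the late age elsewhere. SHRSP vessels held 12.9 and 39.5 CPM in early animals 374 and 383, and 17.5 to 67.7 CPM in every late animal. The neuron library of early Wistar animal 349 had 5 counts of it, and those of late animals 351, 353 and 354 had 10, 4 and 4. The other Wistar neuron libraries had no count.

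**Figure D4:**
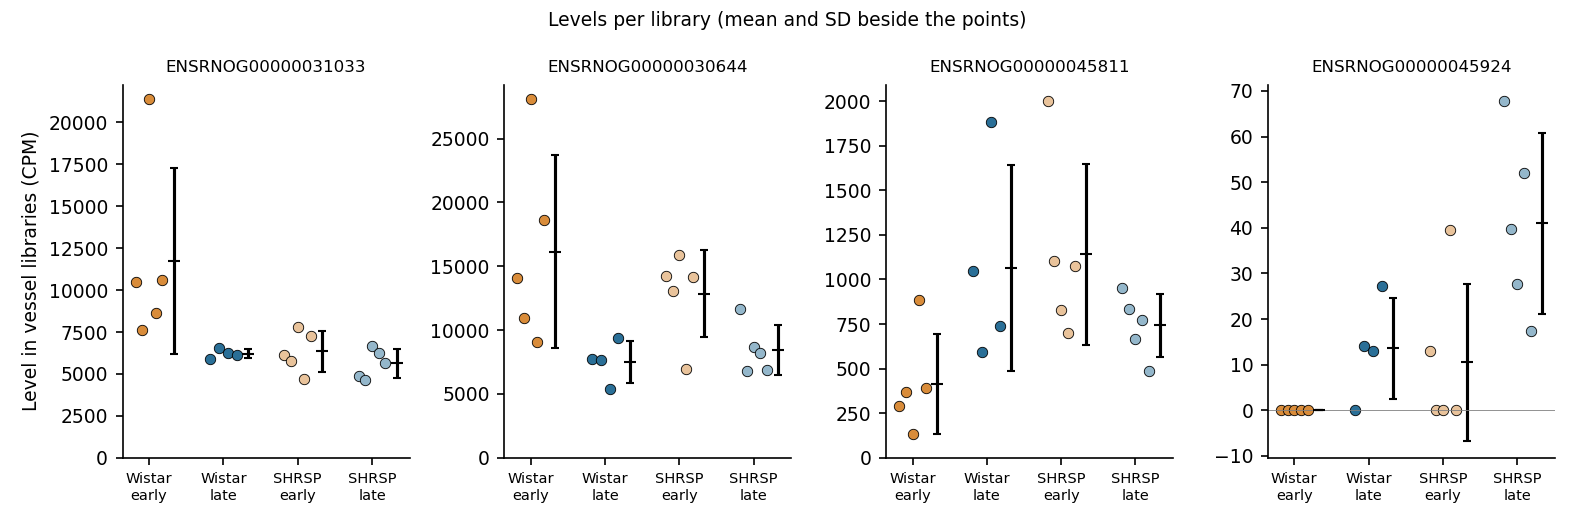
Levels in CPM of the 4 named IDs in each vessel library of Wistar (strong colours) and SHRSP animals (pale), with the mean and SD beside the points. For ENSRNOG00000031033 the 4 late Wistar libraries sit between 5866 and 6542 CPM, below all 5 early Wistar libraries.

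Across all IDs tested the median log2 fold was 0.21, and 57.8% had a higher fitted level late. In limma voom, which takes logs of single counts, the median was 1.5. The sign depended on the level. In edgeR, under 10 CPM the median was 1.32 and 77.2% of the IDs were above 0, at 10 to 100 CPM it was 0.02 (50.9%), at 100 to 1000 CPM -0.10 (44.0%), and at 1000 CPM or more -0.10 (41.8%). Of the 55 IDs in that last group 16 (29.1%) had an unadjusted p under 0.05, 14 of them lower late, and 1 passed the adjusted threshold. Among the 3277 IDs under 10 CPM, 324 had such a p, 299 of them higher late. These 3277 IDs had a count in a median of 2 early and 3 late libraries. Level and filter were taken from the same libraries as the fold, so the sign under 10 CPM is not separate from detection.

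**Figure D5:**
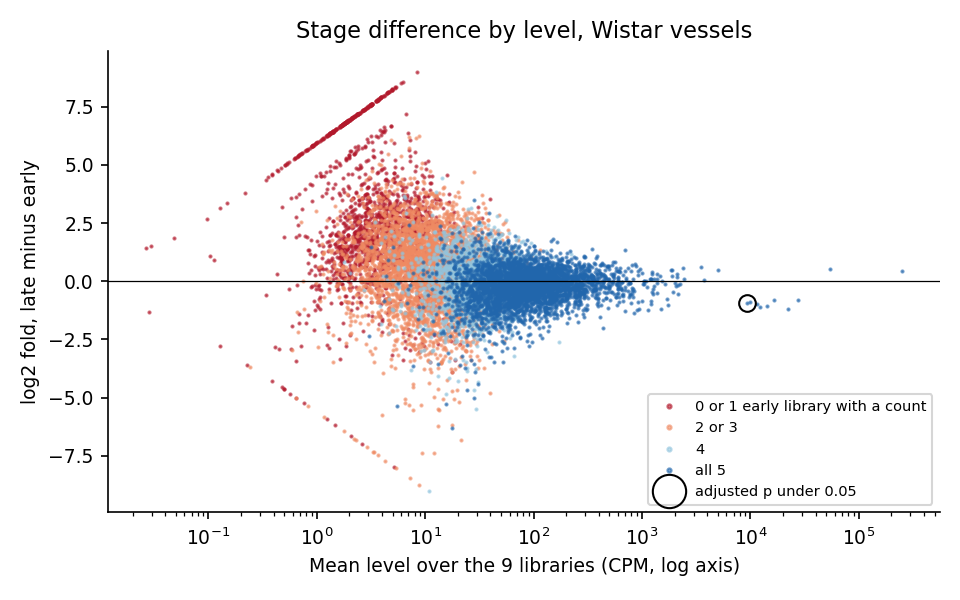
Fitted log2 fold (late minus early) of the tested IDs against their mean level over the 9 Wistar vessel libraries (CPM, log axis), coloured by how many of the 5 early libraries had a count. High folds at low level belong to IDs with a count in 0 or 1 early library, and the circled ID, at a log2 fold of -0.92, is ENSRNOG00000031033. Fitted folds of IDs at 0 in a whole group depend on the prior count and are no bounds.

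In 329 of the 11011 IDs (2.99%) every late library lay above every early one, and in 37 (0.336%) every late library lay below. Of the 329, 297 were at 0 in at least 1 early library, against 7481 (67.9%) of all 11011. The 37 lower IDs had counts in all 5 early libraries by definition, and 3530 of the 11011 met that condition. With animal 349 left out of the early group, 1291 IDs (11.7%) were higher and 122 (1.11%) lower in every late library. Leaving out a library can only raise such counts. By level, 176 of the 3277 IDs under 10 CPM (5.37%) were higher in every late library and 0 were lower. Few could be lower, as 0.641% of them had a count in all 5 early libraries, against 40.0% in all 4 late ones. At 10 to 100 CPM 143 of 6263 (2.28%) were higher and 19 (0.303%) lower. At 100 to 1000 CPM, where zeros were rare, 10 of 1416 (0.706%) were higher and 17 (1.2%) lower. Of the 55 IDs above that, 0 were higher and 1 (1.82%) was lower.

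IDs enriched in vessels and in neurons had fitted folds on both sides of 0. Of the 199 vessel-enriched IDs chosen in SHRSP animals, 124 (62.3%) had a higher fitted level late and 75 a lower one, with a median log2 fold of 0.27, against 57.8% and 0.21 over all IDs tested. Of the 891 neuron-enriched IDs tested, 579 (65.0%) were higher, with a median of 0.54; their median level was 8.59 CPM, in the range where most IDs had a higher fitted level late. Chosen in late SHRSP animals alone, the neuron-enriched set held 215 IDs, of which 112 of the 214 tested (52.3%) had a higher fitted level late, with a median of 0.03 at a median level of 65.2 CPM. The vessel-enriched set chosen that way had 336 of 506 (66.4%) higher, with a median of 0.38. No member of these sets passed. The share of counts of the vessel-enriched IDs was 4.85% ± 2.26 early and 4.14% ± 0.796 late (SD), and that of the neuron-enriched IDs 4.99% ± 1.22 and 4.88% ± 0.997. The late groups lay within the range of the early libraries in both. These shares are of totals that include the most abundant ID. With that ID left out of the totals, vessel-enriched IDs took 4.14% to 9.40% early and 4.75% to 6.88% late. Neuron-enriched IDs then took 4.83% to 7.76% early and 5.98% to 8.17% late, with late animal 353 above the early range. The part of the vessel-enriched IDs with a count also varied: early libraries held 65.3% to 97% of them and late libraries 95.5% to 99.0%.

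The stage difference of Wistar vessels was tested against that of SHRSP vessels in the same fit. It differed for 1 of 11011 IDs (0.00908%; edgeR adjusted p under 0.05), and 788 (7.16%) had an unadjusted p under 0.05. This ID, ENSRNOG00000061934, had no count in the 5 early Wistar libraries and 26.9, 7.93, 2.18 and 0 CPM in late Wistar animals 350, 351, 353 and 354. In SHRSP the counts lay in the early group, with 29.6, 310.1, 0, 0 and 0.331 CPM in early animals 374, 377, 380, 383 and 386 and no count late. The adjusted p of the difference was 0.00221, with zeros on both sides. The 4 IDs named for Wistar did not pass this test: the Wistar and SHRSP log2 folds were -0.92 and -0.17 for ENSRNOG00000031033 (adjusted p of the difference 0.468 in edgeR) and 1.36 and -0.62 for ENSRNOG00000045811 (0.256).

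Against the neurons of the same Wistar animals, the stage difference of vessels differed for 0 of 11169 IDs (0% called in edgeR; 554, or 4.96%, at an unadjusted p under 0.05). With the animal as a block, which pairs the vessel and the neuron library of an animal, 2 IDs passed, both with a lower fold in vessels. DESeq2 called 31, 30 of them with a higher fold in vessels, and limma voom 2. Without the vessel library of animal 349, edgeR called 614, 610 of them with a higher fold in vessels. Of the 610, 444 had no count in any of the other 4 early vessel libraries. Leaving out the early library that lay among the late ones sets the ages apart, so these calls give no separate support. ENSRNOG00000031033 had a log2 fold of 0.25 (SE 0.22) in neurons and did not pass this test (adjusted p = 0.485 in edgeR).

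Detection and stage moved together in 8 of the 9 animals, all but 349, so a stage difference and a difference in how completely the libraries sampled the RNA cannot be told apart for the other early libraries. With the number of IDs detected as a covariate, edgeR called 0 IDs (354 at an unadjusted p under 0.05) and the median log2 fold was -0.32.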

How the data were processed

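The deposited data are a single table of raw counts, which the authors made for 32883 Ensembl gene IDs in 38 columns named for the samples; 0 columns lacked a sample. Per the labels' protocols, the PicoPure kit was used for RNA and the QuantSeq 3' forward kit for libraries. Tools listed in the submitters' processing notes are DESeq2 1.18.1, HTSeq 0.6.1, STAR 2.5.3a and FastQC 0.11.5. Genome build, annotation and strand setting: not given in the sources used here. Matching the IDs to the reference tables gave 0 matches, so 29 gene lists could not be applied and antisense or near-identical genes could not be recognised.

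Counts were fitted with edgeR 4.0.16 in R 4.3.3 over all 19 vessel libraries in 4 groups (low counts filtered by edgeR's rule, TMM scaling, robust quasi-likelihood F test, two-sided, Benjamini-Hochberg over the IDs tested). The contrasts were Wistar late minus early, and how it differed from SHRSP. The contrast with neurons was fitted over the 18 Wistar libraries, which share 1 estimate of the spread although the coefficient of variation differed between vessels (1.97 early, 0.867 late) and neurons (0.568 and 0.274). An SE is the absolute log2 fold divided by the square root of F. Alternatives were limma 3.58.1, DESeq2 1.42.0, other scalings and filters, a covariate, and leaving out each Wistar vessel library. The scripts were tested on simulated data. Without gene names, at most 2 IDs were named in each direction, those with the smallest p; as only 1 ID was called, the others were named although they did not pass. The most abundant ID was named after its values were seen, and ENSRNOG00000061934 as the only ID called between strains. Members and lists were chosen with earlier results of these data known.

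Each library is 1 numbered animal. The permutation p-values measure the spread between these samples. Those of the fitted models also draw on a spread shared with the other groups in the fit, here the SHRSP vessels or the Wistar neurons. Between libraries of 1 group the smallest chi-square per degree of freedom was 33.3, so none looked like a second deposit of another. Reads are not independent molecules where no molecular identifiers are counted, so the bound given covers counting error only. Titles tie the vessel and neuron libraries of an animal by its number. For these 9 pairs, deviations from the group mean over 3311 IDs had correlations of -0.0204 to 0.427, with 3 over 0.1.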

Additional observations from a re-analysis of the deposited data

Results flagged for a closer look

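In early vessels, 1 animal stood far from the others by a gap-to-range rule in 3 of 22 groups of values checked, where chance flags about 1 in 20. The share of the most abundant ID was 40.6% in early animal 349, and its level there was 556897 CPM, which is the same signal on another scale. Among the early Wistar neuron libraries this share was also highest in animal 349 (24.6%). The level of ENSRNOG00000031033 was 21424 CPM in early animal 346. ENSRNOG00000061934 had a stage difference that differed between Wistar and SHRSP vessels (edgeR adjusted p = 0.00221), with opposite directions and no count in early Wistar and late SHRSP libraries.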

How the results depend on the processing

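The count of IDs differing between late and early Wistar vessels (1) was 3 with DESeq2-type scaling, 4 without a filter, 34 in DESeq2, and 0 with a mean of at least 50 CPM required, in limma voom, with only the Wistar groups and with the IDs detected as a covariate. With early animal 349 alone (chosen after seeing the data) it was 0, but that early arm is 1 library with no spread of its own, assumed to vary like the other groups, so this says nothing on stability. Leaving out single libraries gave 0 to 6 (0 without 353, 6 without 349, 4 without 343, 3 without 354, 2 without 340 or 351). The count against SHRSP (1) was 2, 3, 0, 128, 0 and 0 with DESeq2-type scaling, no filter, at least 50 CPM, DESeq2, limma voom and the covariate, and 1 to 2 without single Wistar vessel libraries (2 without 349, 368, 353 or 354). No SHRSP library was left out. The ID called there, ENSRNOG00000061934, had its highest level, 310.1 CPM, in SHRSP animal 377, so how far the call rests on that library was not tested. Against neurons (0) it was 31 in DESeq2, 2 in limma voom, 2 with the replicate block of the animal, and 0 to 614 without single vessel libraries (614 without 349); a block by differences per animal in limma also gave 0, with 1074 at an unadjusted p under 0.05. DESeq2-type scaling moved the median log2 fold there from 0.26 to 0.06. No paired analysis was possible between the ages because no animal number is shared. Without single libraries the difference in IDs detected was 2759 to 4239, in total counts 328556 to 1201446 and in the share of the most abundant ID 6.36 to 14.1 percentage points. With all libraries the difference in total counts had p = 0.302 (exact permutation test). The largest came without animal 353 and is given with no test, since the other late totals all lie above the early ones. The log2 fold of ENSRNOG00000043866 (0.46) was -0.13 with the covariate and -0.93 with animal 349 alone. The share of vessel-enriched IDs (late minus early -0.705 percentage points) was -3.60 when they were chosen in late SHRSP animals, and -1.19 to 0.205 without single libraries, with the sign turned without early animal 368. Those shares keep the most abundant ID in their totals. The causes were not tested.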
